A study of Mus musculus with 12 samples.

Results

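Cytosolic translation initiation and elongation factors were followed across 12 RNA-seq libraries of mouse brain white matter. The set was chosen by name. It holds every gene symbol of the deposited table that begins with Eif or Eef and a digit, without the eIF2 kinases (Eif2ak), if at least 10 reads were counted in at least 3 libraries. Of 59 symbols with such a name, 56 met the count rule, out of 24060 genes listed and 14316 that met the same rule. The 3 left out were Eif3j1, with at most 18 counts in a library, and Eif3j2 and Eif4e1b, which were at 0 in all 12 libraries. The mice were 6 males of genotype Tie2-Cre:Rpl22-HA (RiboTag), in which Cre recombinase puts an HA tag on the ribosomal protein Rpl22. Tie2-Cre is active in endothelial cells and also in cells of the blood lineage. Animals 489, 555 and 556 ate a control fat diet (CFD) with fat as 10% of the kcal. Animals 516, 517 and 676 ate a high-fat diet (HFD) with fat as 60% of the kcal, and their age is not given in the sources used here. Each animal gave 1 library of total white matter RNA (input) and 1 of RNA pulled down with the tagged ribosomes (IP), so that there were 4 groups of 3 libraries. The comparison of HFD IP with CFD IP asks which ribosome-bound transcripts differ with diet, and that of IP with input asks what the pulldown holds more or less of than whole tissue.

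Translation starts when the cap-binding complex eIF4F, made of the cap-binding protein eIF4E, the scaffold eIF4G and the helicase eIF4A, brings an mRNA to the small ribosomal subunit. That subunit carries the large complex eIF3, the start-site factors eIF1 and eIF1A, and eIF2 with the initiator tRNA. Control over this step runs through the 4E binding proteins, which hold eIF4E away from eIF4G, and through eIF2B, which recharges eIF2. Elongation then uses eEF1A to deliver aminoacyl-tRNA and eEF2 to move the ribosome, and the kinase encoded by Eef2k switches eEF2 off. In neurons and muscle, eEF1A comes largely from Eef1a2 in place of Eef1a1.

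Levels were compared between genes only per length, as the deposited FPKM (reads scaled by gene length and library total). Eef1a1 was at 461 FPKM on average over the 12 libraries, Eef2 at 188 and Eif1, a start-site factor, at 122. At the other end, Eif4ebp1 was at 1.02, Eif4ebp3, a related 4E binding protein, at 1.79, and Eif2b3, a subunit of eIF2B, at 2.16 FPKM. Role groups were set by gene symbol, so a group is not the exact make-up of the complex or step it is named for. Eif4a3 and Eif4g2 count in the cap and helicase group, and Eef1e1 counts among the elongation factors. Among role groups, the median of the gene means was 50.2 FPKM for the 7 elongation factors, 45.4 for the 11 genes of the cap and helicase complex, 36.6 for the 12 eIF3 genes, 13.3 for Eif5a, Eif5a2 and Eif6, 12.4 for the 18 genes of start-site choice and the eIF2 cycle, and 12.4 for the 4 genes of the 4E binding proteins. Within eIF3, whose subunits sit in 1 complex, mean FPKM ran from 8.90 for Eif3b to 59.8 for Eif3a.

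**Figure D1:**
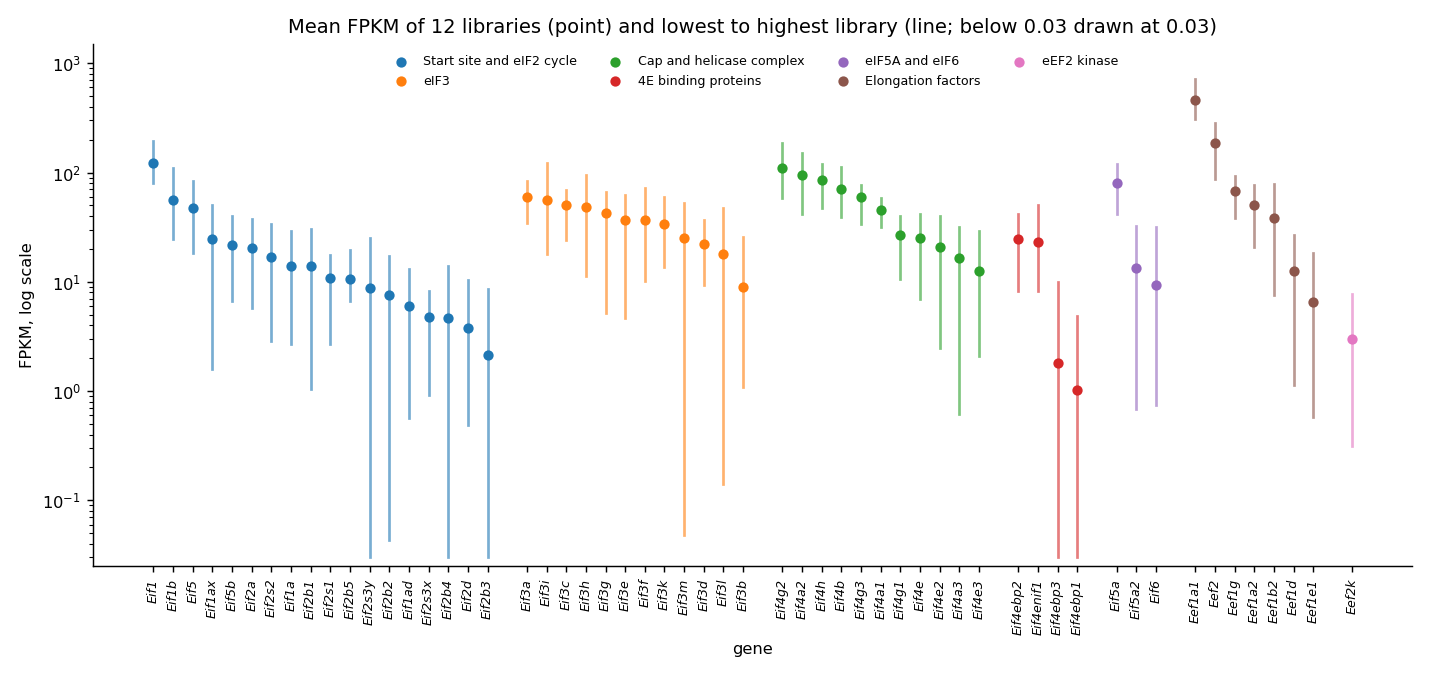
Mean FPKM over the 12 libraries for each of the 56 genes on a log axis (points), grouped by role, with lines from the lowest to the highest library. Eef1a1 stands highest at 461 FPKM and Eif4ebp1 lowest at 1.02 FPKM, and the lines lengthen towards the low genes.

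The promoters of these genes were looked at next, by a search for 5 short sequences in the 250 bases before each annotated start in RefSeq (GRCm38.p6). One is the E-box that the MYC and MAX proteins and the USF proteins bind, CACGTG, which reads the same on both strands. The table used held 44 of the 56 genes and did not hold Eef1d, Eef1g, Eif1a, Eif2b3, Eif3e, Eif3h, Eif3i, Eif4e3, Eif4ebp1, Eif4ebp3, Eif4g2 and Eif6. E-box letters were found for 11 of the 44 genes (25%), against 9.68% of the 10734 tested genes with a promoter in the table. Counted by promoter, a gene having 1 or more, the share was 22.4% of the 58 promoters of these genes against 6.02% of all 32851. The 11 were Eef2, Eef2k, Eif1b, Eif3f, Eif3k, Eif4a1, Eif4e, Eif4g1, Eif4h, Eif5a and Eif5a2. The other four were searched on both strands and are set against the same tested genes. The GC box, GGGCGG, was present for 75.0% of the 44 genes against 62.8%, and the ETS site, CCGGAA, for 36.4% against 23.4%. The TATA box, TATAAA, was present for 11.4% against 7.95%, and the CCAAT box, CCAAT, for 29.5% against 40.2%. Counted by promoter and not by gene, the shares over all 32851 were 32.7% for GGGCGG, 12% for CCGGAA, 12.4% for TATAAA and 33.8% for CCAAT. Over the 58 promoters of these genes they were 69.0%, 29.3%, 8.62% and 22.4% in that order. A match describes the letters and not binding. The E-box was chosen for display with these shares known. For Eif4e and Eif5a the stretch below lies before an annotated start but within the whole span of the gene. Another E-box of Eif4e, from base -228, is not shown. Shown here, 5′ to 3′ on the strand of the gene with the E-box in capitals, are the stretches for 4 genes whose values are given below and whose E-box lies clear of annotated exons.
Eif4a1 (chr11:69672580-69672639, minus strand, E-box from base -189 before the start): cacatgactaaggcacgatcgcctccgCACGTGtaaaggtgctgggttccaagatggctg
Eif4e (chr3:138527177-138527236, plus strand, from base -64): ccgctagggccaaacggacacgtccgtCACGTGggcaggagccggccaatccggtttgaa
Eif4h (chr5:134639473-134639532, minus strand, from base -96): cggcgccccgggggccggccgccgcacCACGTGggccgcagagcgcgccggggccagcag
Eif5a (chr11:69921428-69921487, minus strand, from base -74 of one annotated start and -185 of another): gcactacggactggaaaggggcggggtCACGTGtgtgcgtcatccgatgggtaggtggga

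Libraries held 19567186 to 33660708 counts. The 56 genes took 0.715% ± 0.0634 of the counts in CFD input, 0.428% ± 0.0413 in CFD IP, 0.785% ± 0.143 in HFD input and 0.563% ± 0.0815 in HFD IP (SD, n = 3 each). The ribosomal RNA gene Rn45s took 40.1% of the counts in CFD IP, 18.0% in HFD IP, 10.9% in CFD input and 8.0% in HFD input on average. Without Rn45s and Lars2 the share of the 56 genes was 0.805%, 0.733%, 0.855% and 0.692% in the order CFD input, CFD IP, HFD input and HFD IP. The IP label was checked against cell markers. The 8 endothelial markers summed to between 7.21 and 230 CPM in an IP library and 14.2 to 44.9 CPM in an input library, where CPM is the usual depth-scaled count, here on TMM-scaled library sizes. Of the 8, 4 were fitted higher and 4 lower in CFD IP than in CFD input. In HFD IP against HFD input, 2 were fitted higher and 6 lower. At an unadjusted p under 0.05, 1 of the 8 was higher and 0 lower in CFD IP than in CFD input. In HFD there were 0 in either direction. The low markers named next were picked from the 8 and are given without their inputs, so they do not show depletion. Flt1, Tek, Slco1c1 and Abcb1a are not given singly. Cldn5 was at 0 to 0.505 CPM in CFD IP and 0 to 3.95 in HFD IP. Pecam1 was at no more than 1.91 and Cdh5 at no more than 1.08 CPM in any IP library. The highest sum was from Egfl7 in the IP of animal 556, at 205 CPM. The 7 neuron markers summed to 4765 to 8284 CPM in CFD IP and 8131 to 9644 in HFD IP. In input they summed to 7659 to 12312 CPM in CFD and 7060 to 10136 in HFD. The 5 oligodendrocyte markers summed to 4353 to 5725 CPM in CFD IP and 2628 to 6601 in HFD IP. Their input sums were 3438 to 4169 CPM in CFD and 2611 to 3764 in HFD. The 4 blood markers summed to 0.561 to 1.03 CPM in CFD IP and 0.33 to 3.54 in HFD IP. Their input sums were 5.32 to 23.1 CPM in CFD and 2.35 to 18.1 in HFD. The 6 microglia and macrophage markers summed to 96.0 to 106 CPM in CFD IP and 111 to 275 in HFD IP. Their input sums were 97.2 to 170 CPM in CFD and 66.6 to 133 in HFD. The values in IP are therefore given as those of the pulldown and not of endothelial cells. The study itself reported that this pulldown enriched endothelial transcripts over marker genes of other perivascular cells. In bulk RNA, fewer cells of a type and less RNA per cell cannot be told apart.

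None of the 56 genes passed an adjusted p of 0.1 in any of the 5 comparisons by edgeR's quasi-likelihood test, adjusted over the 14354 genes tested. Of all genes tested, 0.0557% passed for HFD IP against CFD IP, 0.188% for CFD IP against CFD input, 0.0139% for HFD IP against HFD input, 0% for HFD input against CFD input and 0% for the interaction of diet and fraction. All 56 genes were tested. At an unadjusted p under 0.05 there were 7 of the 56 in HFD IP against CFD IP (12.5%, against 10.9% of all genes), 11 in CFD IP against CFD input (19.6% against 11.8%), 3 in HFD IP against HFD input (5.36% against 6.51%), 1 between the inputs (1.79% against 2.03%) and 5 in the interaction (8.93% against 5.36%). DESeq2, whose counts of calls over all genes were larger, called 3 of the 56 in HFD IP against CFD IP (Eif3e, Eif4h and Eif5a), which is 5.36% against 5.36% of all genes and so at the background. It called 7 in CFD IP against CFD input (Eef2k, Eif2a, Eif3e, Eif4e, Eif4h, Eif5a2 and Eif5b; 12.5% against 5.68%), 1 in the interaction (Eif3e, 1.79% against 0.843%) and 0 for HFD IP against HFD input (1.11% of all genes) and between the inputs (0.216%). For HFD IP against HFD input DESeq2 gave no adjusted p for some of the 56, among them Eif1a, Eif3h and Eif5a. Genes without one count as not called in these shares. Without animal 489, edgeR called 1 of the 56 in HFD IP against CFD IP, Eif2s3y, against 0.134% of all genes. The differences described below are therefore given with their libraries, and none passed the adjusted threshold of the main test.

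Groups that do not overlap were counted too. Between CFD IP and CFD input, 14 of the 56 genes had every IP library below every input library (25%, against 8.72% of all genes) and 4 had it above (7.14% against 6.43%). For HFD IP against HFD input the same counts were 6 below (10.7% against 7.98%) and 4 above (7.14% against 6.13%). For HFD IP against CFD IP they were 4 below (7.14% against 4.66%) and 3 above (5.36% against 5.94%), and for HFD input against CFD input 3 below (5.36% against 4.33%) and 3 above (5.36% against 6.05%). The share of 25% in CFD was the farthest from its background. Under RLE scaling, the counts for HFD IP against CFD IP were 6 below (10.7% against 4.98%) and 3 above, and scaling without Rn45s and Lars2 gave the same numbers, with 4.91% of all genes below. The median log2 fold change of the 56 genes was -0.19 for CFD IP against input and -0.21 for HFD IP against input, against -0.01 over all genes in each. It was -0.00057 in CFD without animal 555, -0.07 in CFD without animal 556 and -0.44 in HFD without animal 676. Of all genes tested, 48.3% were fitted lower in HFD IP than in CFD IP, 50.6% in CFD IP than in its input and 50.5% in HFD IP than in its input, which is the background for the counts of directions below. For HFD IP against CFD IP the median was -0.04 against 0.03, and for the inputs -0.05 against -0.00.

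**Figure D2:**
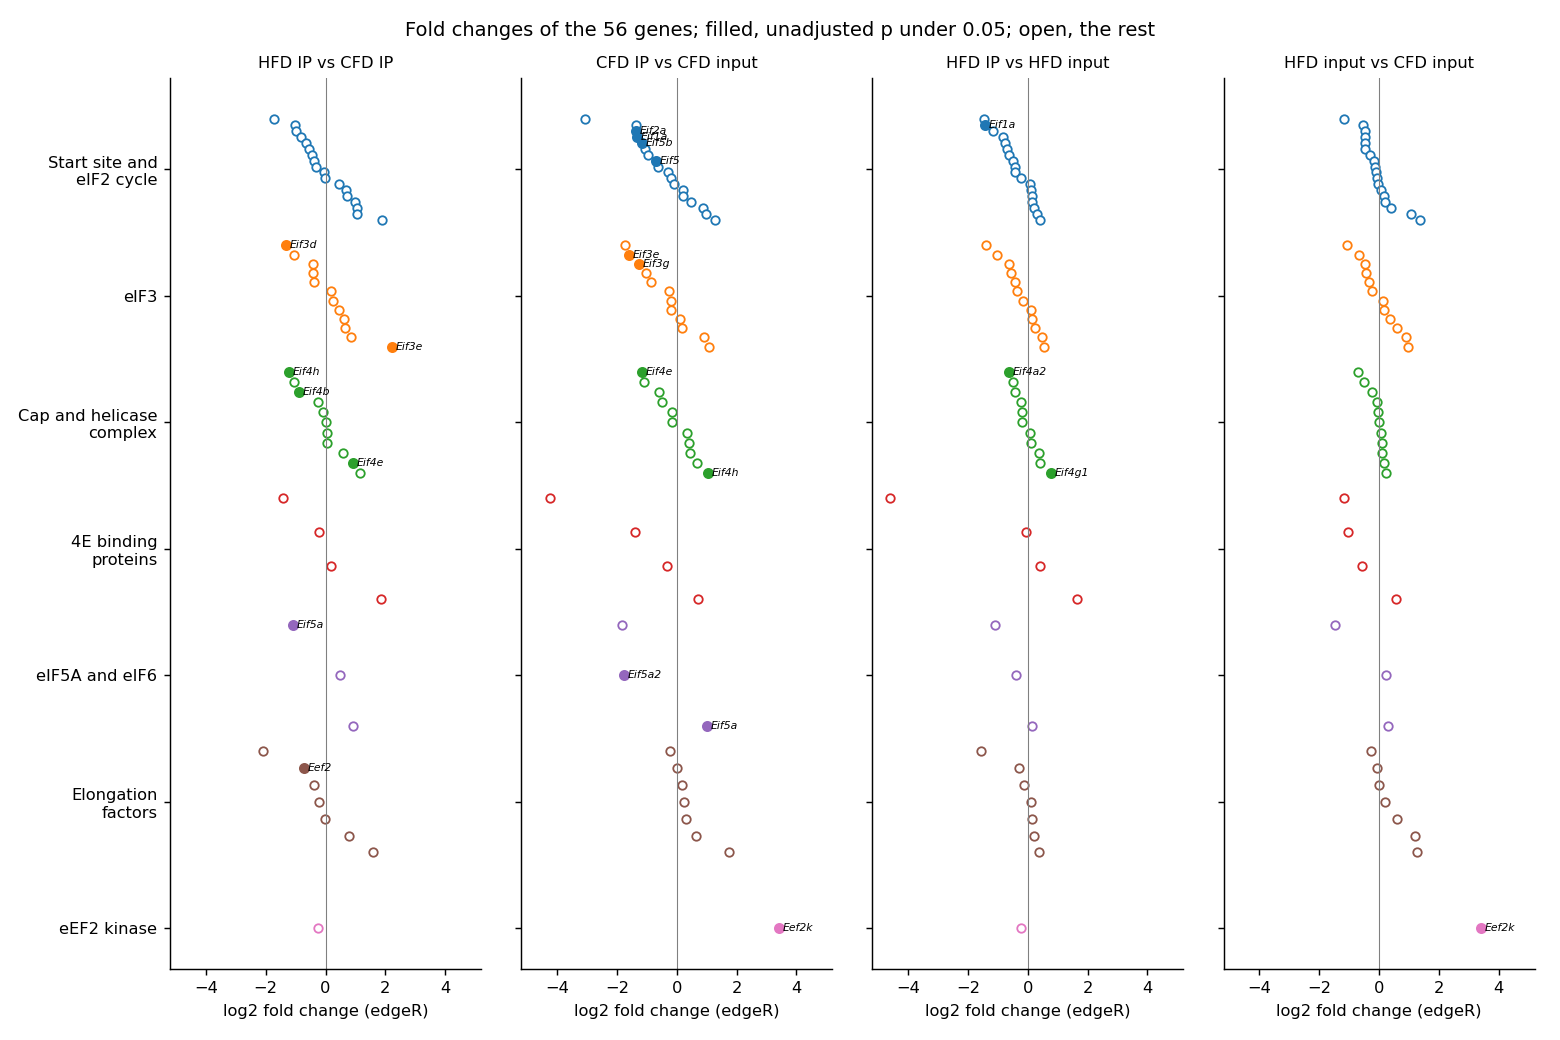
Fitted log2 fold changes (x axis, edgeR) of the 56 genes in 4 comparisons, in rows by role, with genes at an unadjusted p under 0.05 filled and named. In CFD IP against CFD input, 8 of the 11 filled genes lie left of 0, and Eef2k stands farthest right there and between the inputs, at 3.43 in both.

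Within the same animal, IP over input pointed one way in all 6 animals for 6 genes. Eif4a1, which encodes a form of the eIF4A helicase, lay above its input in all 6 (1.79% of the 56 genes, against 4.09% of all genes). Its log2 ratio of IP to input ran from 0.29 to 0.89 with a median of 0.42. The other 5 genes were lower in IP in all 6 animals (8.93% against 4.15%). They were Eif4a2, the helicase form known as the main one of neurons, with a median of -0.63, Eif5, which triggers GTP hydrolysis on eIF2, with -0.75, Eif1a with -1.49, Eif5a2 with -1.50 and Eif3m with -1.50. The closest to 0 was Eif3m in animal 676, at -0.0035.

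**Figure D3:**
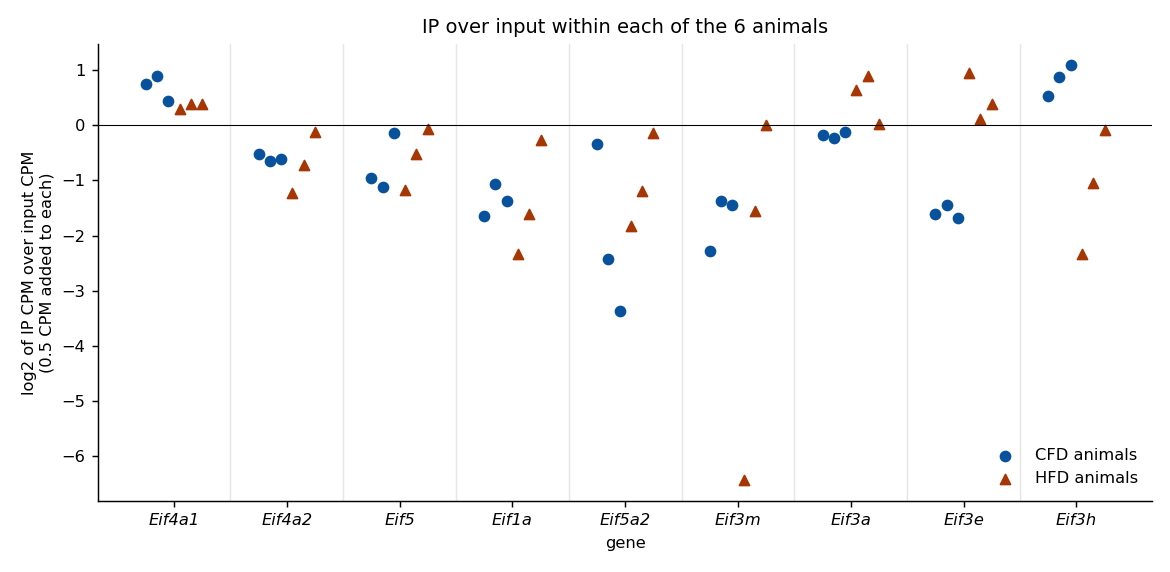
Log2 of IP CPM over input CPM with 0.5 CPM added to each (y axis) in the 6 animals, for the 6 genes that pointed one way in all animals and 3 eIF3 genes whose direction was opposite in the 2 diets. Eif4a1 lies between 0.29 and 0.89, and the lowest point is Eif3m in animal 516 at -6.43, where the IP held 2 counts.

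In the cap and helicase complex, Eif4e (chr3:138526191-138559696), the gene of the cap-binding protein, was at 34.3, 39.8 and 33.2 CPM in CFD IP and at 51.9, 84.8 and 68.2 CPM in HFD IP. The inputs were at 83.7, 84.7 and 70.1 CPM in CFD and 80.5, 93.4 and 62.5 CPM in HFD. All 3 CFD IP libraries lay below the 9 others. The log2 fold change was 0.93 (SE 0.428, edgeR adjusted p = 0.434) for HFD IP against CFD IP and -1.15 (SE 0.429, edgeR adjusted p = 0.315) for CFD IP against input. Eif4h (chr5:134619872-134639409), which stimulates the helicase, had the reverse order. It was at 296, 393 and 450 CPM in CFD IP and at 133, 196 and 160 CPM in HFD IP. CFD input held 110, 250 and 186 CPM and HFD input 219, 133 and 111 CPM of it, so that all 3 CFD IP libraries lay above the 9 others. Its log2 fold change was -1.22 (SE 0.357, edgeR adjusted p = 0.299) for HFD IP against CFD IP and 1.06 (SE 0.356, edgeR adjusted p = 0.269) for CFD IP against input. Eif4b, which encodes another partner of the helicase, was at 299, 520 and 250 CPM in CFD IP and 210, 166 and 205 CPM in HFD IP, groups that do not overlap, at a log2 fold change of -0.88 (SE 0.356, edgeR adjusted p = 0.394).

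The scaffold gene Eif4g1 was at 247, 223 and 144 CPM in HFD IP and 132, 105 and 125 CPM in HFD input. The lowest IP library was above the highest input library, at a log2 fold change of 0.76 (SE 0.354, edgeR adjusted p = 0.741). Eif4g3, another scaffold gene, was also higher in every HFD IP library, at 425, 472 and 371 CPM against 357, 311 and 298 CPM in HFD input, which gave 0.39 on the log2 scale (SE 0.302, edgeR adjusted p = 0.917). Eif4a2 was at 156, 215 and 305 CPM in HFD IP against 365, 355 and 331 CPM in HFD input, at -0.64 (SE 0.296, edgeR adjusted p = 0.741). Its exons neighbour several small nucleolar RNAs, and it overlaps Rfc4 on the other strand. Over the 11 genes of this complex, the fitted change was higher for 6 and lower for 5 in HFD IP against CFD IP, with 3 at an unadjusted p under 0.05 (Eif4e higher, Eif4b and Eif4h lower).

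The 4E binding proteins did not share a direction. Eif4ebp2, the form known as the main one in brain, was at 64.9, 44.7 and 43.5 CPM in CFD IP and 17.2, 49.9 and 65.4 CPM in HFD IP, with CFD input at 43.0, 19.5 and 31.5 CPM. CFD IP did not overlap CFD input, by a margin of 43.5 against 43.0 CPM, at a log2 fold change of 0.70 (SE 0.568, edgeR adjusted p = 0.657). Eif4ebp1 was too low to compare, with 0 counts in 5 of the 12 libraries and at most 150 in any. Eif4ebp3 was at 0 counts in 4 libraries, and all 3 HFD IP libraries, at 0 to 0.244 CPM, lay below HFD input, at 0.306 to 5.51 CPM. Eif4enif1, which carries eIF4E into the nucleus, ranged from 40.5 to 164 CPM over the 12 libraries.

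For the genes of start-site choice and the eIF2 cycle, 12 of 18 had a lower fitted level in CFD IP than in CFD input, against 32 of all 56 genes here and 50.6% of all genes tested. Of the 18, 4 were lower at an unadjusted p under 0.05 (5.88% of all genes) and none was higher (5.94%). Eif5b (chr1:37998010-38055579), whose product joins the ribosomal subunits, was at 129, 75.0 and 93.5 CPM in CFD IP and 171, 279 and 220 CPM in CFD input. The groups do not overlap and the log2 fold change was -1.17 (SE 0.343, edgeR adjusted p = 0.218). In HFD, Eif5b was at 127, 116 and 168 CPM in IP and 168, 177 and 134 CPM in input, which overlap. Eif2a, a factor that can bring initiator tRNA without eIF2, was at 21.9, 19.0 and 27.9 CPM in CFD IP and 60.7, 77.4 and 37.2 CPM in CFD input, with a log2 fold change of -1.35 (SE 0.532, edgeR adjusted p = 0.335). Eif1a was lower in both diets, at -1.32 in CFD and -1.42 in HFD, where the IP held 11.6, 21.4 and 26.2 CPM and the input 60.6, 66.1 and 31.8 CPM (SE 0.62, edgeR adjusted p = 0.71). Eif5b overlaps Rev1 and Eif2a overlaps Serp1 on the other strand, and reads of such pairs cannot be told apart where strand was not used.

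The subunits of eIF2 itself showed no called difference. Eif2s1, the alpha subunit that stress kinases phosphorylate, was at 12.4 to 37.5 CPM in CFD IP, 22.8 to 50.2 in HFD IP, 27.6 to 46.0 in CFD input and 23.6 to 41.6 in HFD input, all of which overlap. Its log2 fold change was 0.71 (SE 0.635, edgeR adjusted p = 0.686) for HFD IP against CFD IP. The gamma subunit has an X-linked and a Y-linked gene with alike sequences, between which reads may be split. Eif2s3y was at 8.38, 0 and 0 CPM in CFD IP and 20.8, 35.8 and 13.2 CPM in CFD input. Eif2s3x was at 4.7 to 16 CPM in CFD IP and 13.4 to 21.6 CPM in CFD input. Single libraries stood apart for the eIF2B subunits. Eif2b2 had 6 counts in the input and 2 in the IP of animal 555 and 3 counts in the IP of animal 517, while the 9 other libraries held 186 to 546 counts. Eif2b3 was at 0 in the IP of animal 555 and Eif2b4 at 0 in the IP of animal 516.

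In eIF3, the subunit gene Eif3e (chr15:43250040-43282736) had the smallest p of the 56 genes for diet in IP. It was at 20.6, 19.4 and 11.8 CPM in CFD IP and at 96.2, 80.0 and 65.1 CPM in HFD IP. In the inputs it was at 63.9, 53.5 and 38.6 CPM in CFD and 50.0, 74.1 and 49.4 CPM in HFD. CFD IP lay below all 9 other libraries, and HFD IP and HFD input overlap. Mean CPM in HFD IP was 4.66-fold that in CFD IP, and the fitted log2 value was 2.22 (SE 0.503, unadjusted p = 0.000214, edgeR adjusted p = 0.22). With no filter on low counts the edgeR adjusted p was 0.0416, by the likelihood ratio test it was 0.0219 and by DESeq2 0.000102, and over all alternatives it ran from 0.000102 to 0.906. For CFD IP against CFD input the log2 fold change was -1.59 (SE 0.493, edgeR adjusted p = 0.244), and the interaction of diet and fraction was 2.07 (SE 0.687, edgeR adjusted p = 0.829). The gene overlaps no other annotated gene.

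Other eIF3 genes did not follow Eif3e. Eif3h was at 52.8, 56.8 and 124 CPM in CFD IP and 16.2, 43.9 and 53.0 CPM in HFD IP, while the inputs held 36.3, 30.7 and 57.7 CPM in CFD and 84.3, 90.8 and 56.2 CPM in HFD. The HFD IP libraries lay below the HFD inputs, at a log2 fold change of -1.03 (SE 0.53, edgeR adjusted p = 0.785). Eif3a, the largest subunit, was at 337, 440 and 268 CPM in HFD IP and 216, 236 and 263 CPM in HFD input, and at 360, 317 and 320 CPM in CFD input, so that the inputs of the diets did not overlap. The log2 fold change was 0.55 (SE 0.284, edgeR adjusted p = 0.793) for HFD IP against input and -0.48 (SE 0.283, edgeR adjusted p = 1) between the inputs. Eif3g and Eif3c were the other two genes with HFD input below CFD input, at 29.8 to 46.7 against 57.6 to 63.8 CPM and 115 to 126 against 134 to 177 CPM. Of the 12 eIF3 genes, 7 had a higher and 5 a lower fitted level in HFD IP than in CFD IP, with Eif3e higher and Eif3d lower (log2 -1.32) at an unadjusted p under 0.05. In the IP of animal 516, Eif3l was at 9 counts and Eif3m at 2 counts, while no other library held fewer than 134 counts of Eif3l or 157 counts of Eif3m.

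Eif5a (chr11:69916712-69921958) encodes the hypusine-bearing factor eIF5A, which relieves ribosome stalling. It was at 209, 116 and 185 CPM in CFD IP and at 65.9, 64.3 and 111 CPM in HFD IP. The inputs held 67.5, 108 and 79.0 CPM in CFD and 92.8, 126 and 96.2 CPM in HFD. CFD IP overlapped neither CFD input nor HFD IP, and the closest pair was 116 against 111 CPM. The log2 fold change was -1.08 (SE 0.385, edgeR adjusted p = 0.356) for HFD IP against CFD IP and 1.0 (SE 0.384, edgeR adjusted p = 0.323) for CFD IP against input. Eif5a overlaps Gps2 on the other strand. Its paralog Eif5a2 was lower in IP in CFD, at 40.7, 21.3 and 5.66 CPM in IP and 51.9, 117 and 62.9 CPM in input, with a log2 fold change of -1.78 (SE 0.613, edgeR adjusted p = 0.273). Eif6, which keeps the large ribosomal subunit from joining early, was at 5.05 to 10.8 CPM in CFD IP and 11.8 to 38.8 CPM in CFD input, and at 6.8 to 12.5 CPM in HFD input.

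The elongation factors had the highest median level per length, and 1 of the 7, Eef2, had an unadjusted p under 0.05 in any comparison. Eef1a1 was at 630, 840 and 706 CPM in CFD input, 814, 953 and 918 CPM in CFD IP, 976, 980 and 556 CPM in HFD input and 871, 624 and 817 CPM in HFD IP. Its log2 fold change was -0.22 (SE 0.269, edgeR adjusted p = 0.795) for HFD IP against CFD IP and 0.30 (SE 0.269, edgeR adjusted p = 0.699) for CFD IP against input. Eef2 was at 1279, 853 and 444 CPM in CFD IP and 473, 598 and 503 CPM in HFD IP, with a log2 fold change of -0.71 (SE 0.333, unadjusted p = 0.0442, edgeR adjusted p = 0.446). The CFD IP value of Eef2 was highest in animal 489 and lowest in animal 556, below all HFD IP libraries. Eef1d, the gene of an eEF1B exchange subunit, was at 14.3, 4.76 and 14.1 CPM in CFD input and 30.4, 26.8 and 23.1 CPM in HFD input, which do not overlap, at a log2 fold change of 1.27 (SE 0.875, edgeR adjusted p = 1). Eef1e1, of the aminoacyl-tRNA synthetase complex, was at 1.90 to 4.85 CPM in CFD input and 6.41 to 12.4 CPM in HFD input. The remaining exchange factor genes overlapped between groups, with Eef1g at 70.1 to 122 and Eef1b2 at 24.2 to 176 CPM over the 12 libraries.

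The share of Eef1a2 in the FPKM of both eEF1A genes was then taken as a measure of the form used. It was 14.0%, 10.1% and 10.4% in CFD input, 16.9%, 5.30% and 6.34% in CFD IP, 7.26%, 9.89% and 12.8% in HFD input, and 5.87%, 10.1% and 9.90% in HFD IP. Group means were 11.5% ± 2.18, 9.52% ± 6.42, 9.98% ± 2.76 and 8.63% ± 2.39 in that order (SD, n = 3). In 2 of 6 animals the IP had the larger share, with a mean difference of -1.65 percentage points and an exact two-sided permutation p of 0.25 over 64 sign changes. HFD IP and CFD IP differed by -0.892 percentage points (exact permutation p = 0.9) and the inputs by -1.49 (exact permutation p = 0.4), where 3 against 3 cannot go below 0.1. The difference between the IP groups turned to 2.81 percentage points without animal 489 and to 0.489 without animal 516. Reads that Eef1a1 shares with near-identical pseudogenes could not be followed in these files.

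Eef2k (chr7:120842642-120907219), the gene of the kinase that acts on eEF2, had the largest difference between the inputs. It was at 3.52, 1.80 and 1.75 CPM in CFD input, which is 82, 51 and 48 counts, and at 23.7, 25.5 and 26.9 CPM in HFD input, which is 852, 703 and 757 counts. The inputs of the diets do not overlap, and within each diet they lay close together. Mean CPM was 10.8-fold in HFD input over CFD input, at a log2 fold change of 3.43 (SE 1.12, unadjusted p = 0.00577, edgeR adjusted p = 1). The log2 fold change stayed between 3.25 and 3.82 when 1 animal was left out, and DESeq2 gave an adjusted p of 0.162. In IP the libraries of 1 group scattered widely, at 3.52, 63.3 and 9.31 CPM in CFD and 18.8, 2.38 and 43.4 CPM in HFD, and the diets overlap. The SD was 32.9 CPM in CFD IP and 20.7 in HFD IP, against 1.01 in CFD input and 1.61 in HFD input. The fit estimated the spread over all 4 groups, so the SE and p between the inputs also hold the scatter of the IP libraries. For CFD IP against CFD input the log2 fold change was 3.43 (SE 1.12, edgeR adjusted p = 0.268), and without animal 555 it was 1.30. The interaction was -3.66 (SE 1.49, edgeR adjusted p = 0.872). At a mean of 2.99 FPKM, Eef2k was among the 4 lowest of the 56 genes per length, and it overlaps 2 lncRNA genes on the other strand, Gm36449 and Gm15774.

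**Figure D4:**
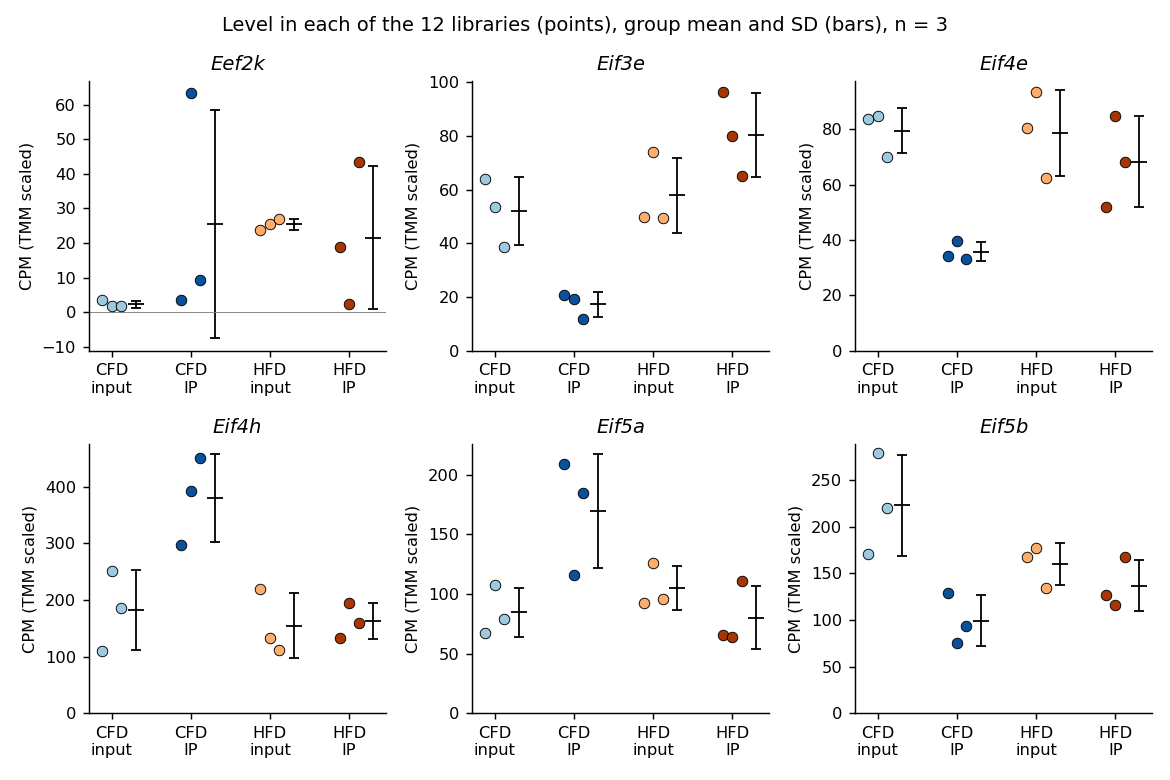
CPM (y axis, TMM scaled) of 6 genes in each of the 12 libraries (points) by group, with the mean and SD of 3 libraries as bars. Eef2k is at 1.75 to 3.52 CPM in CFD input and 23.7 to 26.9 CPM in HFD input, and the CFD IP libraries stand apart from the other groups for Eif3e, Eif4e and Eif4h.

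The 10 genes followed by name in every comparison are completed here by their fitted log2 values, none of which passed the threshold. For HFD IP against CFD IP the values not yet given were Eef1a2 at -0.39 (SE 0.428), Eef2k at -0.24 (SE 1.02), Eif4g1 at 0.57 (SE 0.354), Eif4ebp1 at 1.85 (SE 2.82) and Eif4ebp2 at -0.21 (SE 0.565), with edgeR adjusted p from 0.547 to 0.951. For CFD IP against CFD input the values not yet given were Eef1a2 at 0.02 (SE 0.428), Eef2 at 0.64 (SE 0.333), Eif4g1 at 0.36 (SE 0.353), Eif4ebp1 at -1.38 (SE 2.78) and Eif2s1 at -0.63 (SE 0.634), with edgeR adjusted p from 0.445 to 0.996. Eif4ebp1 had the widest errors, and those of Eef1a1 were the smallest among the 10. For HFD IP against HFD input the values not yet given were Eef1a1 at -0.12 (SE 0.269), Eef1a2 at -0.31 (SE 0.428), Eef2 at 0.22 (SE 0.332), Eef2k at -0.24 (SE 1.02), Eif4e at -0.21 (SE 0.424), Eif4ebp1 at 1.63 (SE 2.8), Eif4ebp2 at -0.07 (SE 0.565), Eif2s1 at 0.15 (SE 0.631) and Eif5a at -0.39 (SE 0.381), with edgeR adjusted p from 0.955 to 0.994. For HFD input against CFD input the values not yet given were Eef1a1 at 0.21 (SE 0.269), Eef1a2 at -0.07 (SE 0.427), Eef2 at -0.28 (SE 0.332), Eif4e at -0.01 (SE 0.423), Eif4g1 at 0.16 (SE 0.353), Eif4ebp1 at -1.17 (SE 2.76), Eif4ebp2 at 0.57 (SE 0.567), Eif2s1 at -0.06 (SE 0.631) and Eif5a at 0.31 (SE 0.381), with edgeR adjusted p all at 1. For the interaction of diet and fraction the values not yet given were Eef1a1 at -0.42 (SE 0.38), Eef1a2 at -0.32 (SE 0.605), Eef2 at -0.43 (SE 0.469), Eif4e at 0.95 (SE 0.601), Eif4g1 at 0.41 (SE 0.499), Eif4ebp1 at 3.02 (SE 3.95), Eif4ebp2 at -0.78 (SE 0.8), Eif2s1 at 0.77 (SE 0.894) and Eif5a at -1.39 (SE 0.541), with edgeR adjusted p from 0.872 to 0.98. Of the members with the smallest p of a comparison, Eef1d was fitted at 1.59 (SE 0.882, edgeR adjusted p = 0.503) for HFD IP against CFD IP, with groups that overlap. Between the inputs, the overlapping genes among these were Eif3h at 0.89 (SE 0.529), Eif5b at -0.48 (SE 0.339) and Eif6 at -1.48 (SE 1.05), all 3 at an adjusted p of 1 by edgeR. The interaction was 0.94 (SE 0.48, edgeR adjusted p = 0.896) for Eif5b, 1.51 (SE 0.804, edgeR adjusted p = 0.896) for Eif3g and -1.94 (SE 0.749, edgeR adjusted p = 0.872) for Eif3h.

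The spread between libraries differed among the genes. The biological coefficient of variation fitted by edgeR had a median of 51.9% over the 56 genes and 85.8% over all genes tested, and it ran from 29.3% to 218% among the 56. Low genes, such as Eif4ebp1 and Eif4ebp3, were at the top of that range.

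Genes around these factors were compared by fixed lists, and none of their genes had an edgeR adjusted p under 0.1 in any comparison. At an unadjusted p under 0.05, 6.08% of all genes tested were higher and 4.82% lower in HFD IP than in CFD IP. Higher in IP than in input at that p were 5.94% in CFD and 4.68% in HFD. Of the 8 genes of eIF2 kinases and stress output, none had an unadjusted p under 0.05, and 5 had a lower and 3 a higher fitted level in HFD IP than in CFD IP. Atf4, the transcription factor translated when eIF2 is phosphorylated, was at 78.5 to 128 CPM in CFD IP and 43.4 to 80.2 CPM in HFD IP. Of the 12 genes of mTOR and MNK control, 9 were fitted higher in IP than in input in each diet, 2 of them at an unadjusted p under 0.05 in each, and Mtor was at 120 to 396 CPM in CFD IP, 60.8 to 114 in CFD input, 130 to 211 in HFD IP and 62.3 to 114 in HFD input. In HFD IP against CFD IP, 7 of these 12 were fitted higher and 5 lower, 1 of them lower at an unadjusted p under 0.05. Tsc1, an inhibitor of mTOR signalling, was at 72.0 to 227 CPM in CFD IP and 25.6 to 56 CPM in HFD IP. Of the 5 termination and recycling genes, 5 were fitted lower in HFD IP than in HFD input, none at an unadjusted p under 0.05. In CFD IP against CFD input 4 were fitted lower, 1 at that p, and 1 higher. In HFD IP against CFD IP 3 were fitted higher, 1 at that p, and 2 lower. Etf1, the release factor, was at 16.4 to 37.3 CPM in CFD IP and 60.5 to 80.6 CPM in HFD IP. For the 4 poly(A) binding genes, 3 of 4 were fitted lower in IP than in input in each diet, none at that p. Of the 5 genes that modify eIF5A and eEF2, 4 were fitted lower in HFD IP than in CFD IP, 1 at that p, and Dohh, which completes hypusine, was at 7.97 to 47.2 CPM in CFD IP and 1.55 to 6.61 CPM in HFD IP. Of the 6 mitochondrial factors, 4 were fitted higher in HFD IP than in CFD IP, 2 at that p, and Mtif2 was at 4.82 to 16.2 CPM in CFD IP and 21.2 to 76.5 CPM in HFD IP. The 9 members known to carry a 5′ terminal oligopyrimidine tract had a median log2 fold change of -0.22 for HFD IP against CFD IP, with 3 higher (Eif3e at an unadjusted p under 0.05) and 6 lower (Eef2 and Eif4b at that p).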

How the data were processed

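RNA of anti-HA pulldowns and inputs of the same 6 mice was sequenced. Per the submitters' processing notes the authors used STAR, HTSeq and mm10. Different library kits are named in the labels and in the methods of the study, and whether counting used strand is not given in the sources used here. The deposited counts are raw whole reads per gene and library. The authors' FPKM values follow from counts, gene length and library total. A normalized signal per library, deposited by the authors beside them, was not used. The authors' own log2 fold changes and p-values in the deposited table were not used.

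Counts were analysed with edgeR 4.0.16 in R 4.3.3: filterByExpr (minimum count 10, minimum total 15), TMM scaling, 4 group means over all 12 libraries and a quasi-likelihood F test, with Benjamini-Hochberg adjustment over 14354 genes and a threshold of 0.1. Standard errors are the fold change over the root of F. DESeq2 1.42.0 and limma 3.58.1 served as alternatives. Nothing states separate litters or days for the animals. For the comparisons of the diets, p-values measure a spread between libraries that was estimated over all 12. That estimate pools IP with input and takes the libraries of 1 animal as separate. The main fit had no animal term. For IP against input and the interaction, its p-values therefore do not measure the spread of differences within an animal. IP and input came from the same animal, which pairs them, and their deviations from group means correlated at 0.0064 to 0.19 across genes. Single values were compared by exact permutation. The code was tested on simulated data.

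The genes named are those with the smallest p in each direction of a comparison (3 each), 10 fixed genes, those with the widest fold among groups that do not overlap, and the highest and lowest 3 by FPKM. Others named for p, for 1 library far from the rest, or from the neighbouring lists were chosen after their values were seen. The members and lists were chosen with earlier results of these data known. Positions are RefSeq whole genes on GRCm38.p6, the mm10 assembly, and chromosomes matched those in the file for 54 of 56 genes, with none given for the others.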

Additional observations from a re-analysis of the deposited data

Results flagged for a closer look

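The eIF3 genes Eif3e, Eif3h and Eif3a had a ratio of IP to input of opposite sign in the diets in every animal, against 2.45% of all genes tested (5.36% of the 56). For Eif3e the mean log2 ratio was -1.57 in CFD and 0.48 in HFD, a difference of 2.06. The interactions given here are of the main fit, which has no animal term and so does not test these paired differences. For Eif3e the interaction was 2.07 (edgeR adjusted p = 0.829). For Eif3h the means were 0.84 and -1.16, a difference of -1.99, with an interaction of -1.94 (edgeR adjusted p = 0.872). For Eif3a they were -0.18 and 0.52, a difference of 0.70, with an interaction of 0.73 (edgeR adjusted p = 0.896). None of the interactions passed the threshold of 0.1, either in the main fit or in edgeR with the animal as a block. In animal 676 the ratio of Eif3a was 0.02 and that of Eif3h -0.08.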

How the results depend on the processing

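None of the 56 genes passed in any comparison under RLE scaling, without Rn45s and Lars2, with only the 6 libraries compared, or at an adjusted p under 0.05. With the animal as a replicate block, 0 of the 56 passed in each of the 5 comparisons. For IP against input and the interaction the block was fitted in edgeR, and the pairing changed no call there. The comparisons of the diets lie between animals, and their block was fitted in limma, which changed the test too. With no filter on low counts 2 passed for HFD IP against CFD IP and 2 for CFD IP against input (3.57% each, against 1.20% and 1.70% of all genes), by the likelihood ratio test 1 in each (1.79%, against 1.58% and 1.93%), and by DESeq2 3 and 7 (5.36% and 12.5%, against 5.36% and 5.68%), with 1 in the interaction. Leaving out 1 animal gave 0 to 1 for HFD IP against CFD IP, the 1 without animal 489. Over all genes tested, edgeR called 8 for HFD IP against CFD IP, 27 for CFD IP against input and 2 for HFD IP against input. DESeq2 called 770, 816 and 160, edgeR with no filter 219, 312 and 79, and the likelihood ratio test 227, 277 and 4. The block called 5 by limma for HFD IP against CFD IP, and 139 and 24 by edgeR for the others. For the inputs and the interaction edgeR called 0 and 0, DESeq2 31 and 121, no filter 3 and 44, and the likelihood ratio test 0 and 37. With only the 6 libraries compared 3, 14 and 0 were called in the first 3 comparisons, and without 1 animal 1 to 20, 2 to 52 and 0 to 35.

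Counts of genes whose groups do not overlap were recomputed by alternatives chosen after seeing the data, and fewer libraries overlap less by construction. The shares of the 56 genes and of all genes follow each count, without 1 animal in turn. Between the IP groups, 5 to 8 were higher in HFD (8.93 to 14.3% against 10.1 to 12.4%) and 4 to 8 were lower (7.14 to 14.3% against 7.73 to 10.1%). For CFD IP against input, 8 to 10 were higher (14.3 to 17.9% against 15.6 to 16.7%) and 19 to 21 were lower (33.9 to 37.5% against 19.3 to 23.0%). In HFD IP against its input, 6 to 11 were higher (10.7 to 19.6% against 14.0 to 17.4%) and 9 to 20 were lower (16.1 to 35.7% against 18.1 to 25.3%). Between the inputs, 4 to 10 were higher in HFD (7.14 to 17.9% against 10.4 to 13.6%) and 4 to 7 were lower (7.14 to 12.5% against 7.32 to 9.98%). For HFD IP lower than its input, the 20 genes without animal 676 (35.7%) stood against 25.3% of all genes, and the 9 without animal 516 (16.1%) against 18.1%. Under RLE scaling and without Rn45s and Lars2, the counts higher and lower were 3 and 6 in both for HFD IP against CFD IP, 5 and 14 in both for CFD IP against input, 3 and 6 or 4 and 6 for HFD IP against input, and 3 and 3 in both between the inputs.

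Signs turned for 8 of the 10 genes followed by name, in comparisons in which none of them passed. For HFD IP against CFD IP the block was fitted in limma, which changed the test too, and gave -0.39 for Eif4ebp1. By edgeR with the block, the log2 value was -0.62 for Eif4ebp1 in HFD IP against input. It was -0.18 for Eef1a2 in CFD IP against input. Without 1 animal, HFD IP against CFD IP ran from -0.67 to 0.29 for Eef1a2, -1.26 to 1.74 for Eef2k, -6.59 to 5.68 for Eif4ebp1 and -0.60 to 0.15 for Eif4ebp2. The share of Eef1a2 ran from -3.00 to 2.81 percentage points there. CFD IP against input ran from -0.61 to 0.31 for Eef1a2 and -5.31 to 0.40 for Eif4ebp1. HFD IP against input ran from -0.39 to 0.14 for Eef1a1, -1.21 to 0.30 for Eef2k, -3.98 to 1.77 for Eif4ebp1 and -0.55 to 0.35 for Eif4ebp2. The inputs ran from -0.23 to 0.030 for Eef1a2, -0.15 to 0.13 for Eif4e, -4.00 to 0.090 for Eif4ebp1 and -0.24 to 0.19 for Eif2s1. The interaction ran from -0.62 to 0.29 for Eef1a2, -0.68 to 0.022 for Eef2 and -2.59 to 6.94 for Eif4ebp1. The cause was not tested. Counts of 0 in at least 1 library limit Eif4ebp1 (5 libraries), Eif4ebp3 (4), Eif2s3y (2), Eif2b3 (1) and Eif2b4 (1).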
